A study of Mus musculus with 6 samples.

Results

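The 10 genes described here stand at the core of hepatic Wnt signalling and of the pericentral zone of the liver. They were chosen as the rows of the deposited table whose gene symbol equals a listed name. This list and the further gene lists below were drawn up with earlier results of these data known. Counts set beside shares over all genes therefore describe the lists and do not test them. All 10 were found, of 34745 genes in the table, and all 10 passed the filter on low counts that left 12556 genes for the test. They are Ctnnb1 (beta-catenin), the Wnt feedback and target genes Axin2, Lgr5, Rnf43, Znrf3 and Tbx3, and the pericentral genes Glul, Rhbg, Lect2 and Rgn. The study compared 3 RNA sequencing libraries from Sox9HKO mice (called HKO) with 3 from mice carrying floxed Sox9 alleles, Sox9f/f (called WT). All mice were 12 weeks old and labelled C57BL/6, and all had undergone partial hepatectomy, an operation that takes away liver lobes and starts regeneration, 48 h earlier. Tissue is labelled liver and cell type hepatocyte, and the driver of the Sox9 deletion and the exons it removes are not given in the sources used here. Since nothing ties each library to a separate mouse, p-values measure only the spread between libraries of a group, which may be technical.

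Wnt proteins bind Frizzled receptors with the co-receptors Lrp5 and Lrp6. This stops the destruction complex of Axin, Apc and the kinases Gsk3 and casein kinase 1 from degrading beta-catenin, which then acts with Tcf factors on target genes. R-spondins, through Lgr receptors, keep the ubiquitin ligases Rnf43 and Znrf3 from clearing Frizzled. In mouse liver, endothelial cells of the central vein make Wnt2, Wnt9b and Rspo3, and the hepatocytes around that vein express glutamine synthetase (Glul) and other pericentral genes, while hepatocytes near the portal vein express genes of the urea cycle and of glucose production.

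The libraries held 16659778 to 21168233 counts. Sox9, the targeted gene, was at 48.3% of its WT mean in HKO (log2 fold change -1.05, SE 0.27, adjusted p = 0.0284). It stood at 6.34, 4.30 and 4.79 CPM (reads scaled to library size, with TMM factors between libraries) in HKO 1, 2 and 3 and at 6.94, 13.7 and 11.4 CPM in WT 1, 2 and 3. Sox9 no longer passed without HKO 2, HKO 3, WT 2 or WT 3 (adjusted p from 0.0503 to 0.0975) or with a replicate block (adjusted p = 0.0652). Mitochondrial genes held 25.9% of HKO 2 counts, and 12.1% to 16.3% elsewhere. Hepatocyte markers were abundant (the 6 listed summed to between 76782 and 103790 CPM per library). Markers of other liver cells were also present. The 10 endothelial genes summed to 611 CPM in HKO 2 and to between 124 and 241 CPM in the other libraries, and the 8 stellate cell genes to 488 CPM in HKO 2 and to between 81.1 and 142 CPM elsewhere. The 8 Kupffer cell genes summed to between 160 and 241 CPM in HKO and between 104 and 111 CPM in WT. The 6 biliary genes summed to between 19.2 and 41.5 CPM in HKO and between 47.2 and 144 CPM in WT, nearly all of it Spp1, while the duct keratin gene Krt19 reached at most 3.20 CPM, in HKO 2. The part of these marker differences in the members' values was not tested, and in bulk RNA fewer cells of a type and less RNA per cell cannot be told apart.

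Lect2, a secreted protein made by hepatocytes and a target of beta-catenin in mouse liver, carried a letter match to the Tcf recognition sequence beside its start, and its promoter is shown with those of Glul and Axin2 for contrast. Of the 10 genes, 5 (Ctnnb1, Axin2, Rnf43, Glul and Lect2) matched RefSeq promoter windows on GRCm38.p6, which run from 250 bases before to 50 bases after the start. The letters CTTTGA were searched on both strands, so that a match may also read TCAAAG in print. They lie within the longer motif CTTTGAT, also searched on both strands. The 6-letter motif was found in 16.0% of all 32851 windows of 300 bases and the 7-letter motif in 3.73%. Among the 5 genes, both were in the Lect2 window alone, with the 6 letters beginning 31 bases before the start. A match in letters is no evidence of binding, and its lack in a window says nothing of other sites. The windows are chr13:56548489-56548788 (minus strand) for Lect2, chr1:153899679-153899978 (plus strand) for Glul and chr11:108920099-108920398 (plus strand) for Axin2, printed 5′ to 3′ on the gene's strand with the 6-letter motif in capitals.
Lect2: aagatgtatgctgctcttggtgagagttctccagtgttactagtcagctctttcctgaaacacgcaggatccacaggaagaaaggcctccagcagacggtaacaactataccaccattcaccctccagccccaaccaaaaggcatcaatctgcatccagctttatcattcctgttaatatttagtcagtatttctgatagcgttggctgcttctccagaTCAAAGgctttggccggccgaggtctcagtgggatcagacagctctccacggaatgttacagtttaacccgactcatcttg
Glul: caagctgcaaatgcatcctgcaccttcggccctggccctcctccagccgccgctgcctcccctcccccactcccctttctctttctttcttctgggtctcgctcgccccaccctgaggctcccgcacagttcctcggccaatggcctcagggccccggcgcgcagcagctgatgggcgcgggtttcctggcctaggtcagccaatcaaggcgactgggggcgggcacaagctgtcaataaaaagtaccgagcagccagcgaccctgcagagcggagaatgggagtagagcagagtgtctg
Axin2: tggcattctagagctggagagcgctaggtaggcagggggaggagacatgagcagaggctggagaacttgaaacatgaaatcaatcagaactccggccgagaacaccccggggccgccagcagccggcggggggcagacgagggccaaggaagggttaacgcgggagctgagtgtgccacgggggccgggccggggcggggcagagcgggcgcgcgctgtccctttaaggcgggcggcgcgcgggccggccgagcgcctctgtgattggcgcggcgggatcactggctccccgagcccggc

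HKO was compared with WT for each gene by edgeR's quasi-likelihood test, fitted on all tested genes and adjusted over them by the Benjamini-Hochberg method. Rhbg, Lgr5 and Ctnnb1, 3 of the 10, were lower in HKO and 0 were higher at an adjusted p below 0.05, where 11.2% of all genes tested were lower and 12.1% higher. At an unadjusted p below 0.05 the count of members higher was also 0, and by DESeq2 and limma-voom it was 0 as well. In these 3 genes every HKO value lay below every WT value, as in 21.6% of all genes tested, and 44.2% of all genes did not overlap in one direction or the other. The median log2 fold change of the 10 was -0.27, against 0.02 over all genes tested. The other 7 members overlapped between the groups.

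**Figure D1:**
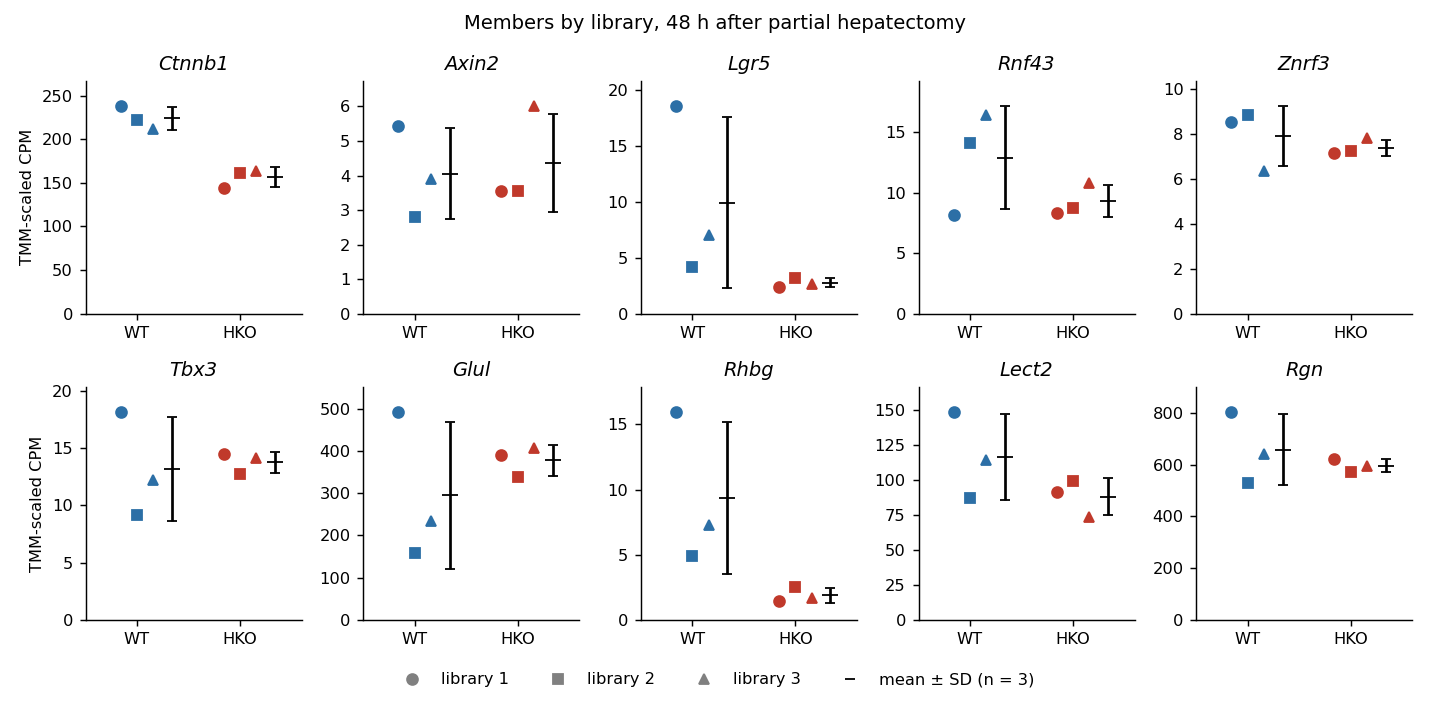
Levels of the 10 genes in each library, as TMM-scaled CPM on axes that start at 0, with the mean and SD of each group beside the points (n = 3). Rhbg, Lgr5 and Ctnnb1 are lower in every HKO library than in any WT library, and WT 1 is the highest WT library in 8 of the 10 genes.

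Ctnnb1 (ENSMUSG00000006932, chromosome 9, 120929216 to 120960507, plus strand, GRCm38) encodes beta-catenin, the transducer of the pathway and a part of cell junctions. HKO 1, 2 and 3 held 144, 162 and 164 CPM of it, against 238, 222 and 212 CPM in WT 1, 2 and 3. Every HKO library was thus below every WT library, with little spread within either group. The means were 157 ± 11.1 and 224 ± 13.2 CPM (SD, n = 3), a fall to 69.9% of WT (log2 fold change -0.52, SE 0.10, adjusted p = 0.00889). The call was kept under all 12 alternatives, with adjusted p from 9.01e-05 to 0.0357.

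Of the feedback genes, Lgr5 (ENSMUSG00000020140, chromosome 10, 115450311 to 115587780, minus strand), the R-spondin receptor of pericentral hepatocytes, was the lowest per length in HKO. HKO 1, 2 and 3 gave 2.42, 3.20 and 2.69 CPM, from 45, 55 and 59 reads, while WT 1, 2 and 3 gave 18.6, 4.21 and 7.02 CPM, from 335, 75 and 115 reads. HKO was uniformly low, and WT 1 was far above the other WT libraries. The means were 2.77 ± 0.397 and 9.95 ± 7.63 CPM (SD, n = 3), 27.8% of WT (log2 fold change -1.85, SE 0.51, adjusted p = 0.0357). Without WT 1 the log2 fold change was -1.03 and the call was lost (adjusted p = 0.0531). It was also lost without HKO 1, HKO 3 or WT 3 (adjusted p up to 0.1), with a replicate block (log2 fold change -1.59, adjusted p = 0.0608) and by limma-voom (adjusted p = 0.0993).

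Rnf43 and Znrf3, the ligases that clear Frizzled, did not pass the test. Rnf43 (chromosome 11, 87662722 to 87735539, plus strand) had values of 8.33, 8.78 and 10.8 CPM in the HKO libraries 1 to 3, against 8.17, 14.1 and 16.5 CPM in the WT libraries 1 to 3. WT 1 was the lowest of the 6 libraries, opposite to its place in Lgr5. The log2 fold change was -0.47 (SE 0.25, adjusted p = 0.212), and without WT 1 Rnf43 was called lower (log2 fold change -0.73, adjusted p = 0.0279). Znrf3 (chromosome 11, 5276324 to 5444847, minus strand) stood between 7.14 and 7.79 CPM in HKO and between 6.35 and 8.82 CPM in WT, and its log2 fold change was -0.10 (SE 0.17, adjusted p = 0.715).

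Axin2, the scaffold of the destruction complex that beta-catenin itself induces, and Tbx3, a repressor of transcription, also overlapped between the groups. Axin2 (chromosome 11, 108920349 to 108950783, plus strand) reached 3.55, 3.55 and 6.02 CPM in the HKO libraries 1 to 3, and 5.44, 2.81 and 3.91 CPM in the WT libraries 1 to 3. HKO 3 was the highest library and WT 2 the lowest (log2 fold change 0.11, SE 0.32, adjusted p = 0.825), and the sign turned without HKO 3 (-0.20) or WT 2 (-0.10). Tbx3 (chromosome 5, 119670669 to 119684724, plus strand) stood between 12.7 and 14.5 CPM in HKO and at 18.2, 9.16 and 12.3 CPM in WT 1, 2 and 3 (log2 fold change 0.06, SE 0.23, adjusted p = 0.867). Exons of Tbx3 overlap Tbx3os1 on the opposite strand, which had 3 to 24 counts.

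Of the pericentral enzymes and transporters, Rhbg had the largest difference of the 10 genes. Rhbg (ENSMUSG00000104445, chromosome 3, 88242874 to 88254709, minus strand) encodes an ammonium transporter of the Rhesus family. HKO 1, 2 and 3 held 1.45, 2.501 and 1.69 CPM, from 27, 43 and 37 reads, and WT 1, 2 and 3 held 15.9, 4.89 and 7.26 CPM, from 287, 87 and 119 reads. All HKO libraries were below all WT libraries, and WT 1 was again the highest. The means were 1.88 ± 0.551 and 9.36 ± 5.82 CPM (SD, n = 3), 20.1% of WT (log2 fold change -2.32, SE 0.46, adjusted p = 0.0106). The call was kept under all 12 alternatives (adjusted p from 3.01e-06 to 0.0436), and without WT 1 the log2 fold change was -1.71. A predicted gene on the same strand that shares exon bases with Rhbg, Gm38392, had at most 1 count in any library.

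Glul (ENSMUSG00000026473, chromosome 1, 153899944 to 153909723, plus strand), the glutamine synthetase that takes up ammonium in the last hepatocytes before the central vein, did not pass the test in either direction. HKO 1, 2 and 3 held 390, 337 and 406 CPM, and WT 1, 2 and 3 held 492, 159 and 234 CPM. The 3 HKO libraries lay above WT 2 and WT 3 and below WT 1. The means were 378 ± 36.1 and 295 ± 175 CPM (SD, n = 3), and the log2 fold change was 0.36 (SE 0.36, adjusted p = 0.506). Without WT 1 Glul was called higher in HKO (log2 fold change 0.93, adjusted p = 0.0188), the only alternative of 12 in which it passed.

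Lect2 and Rgn completed the pericentral members. Lect2 (chromosome 13, 56542460 to 56548538, minus strand) measured 91.3, 99.4 and 73.2 CPM in the HKO libraries 1 to 3, and 148, 87.1 and 114 CPM in the WT libraries 1 to 3 (log2 fold change -0.41, SE 0.20, adjusted p = 0.174). Rgn (chromosome X, 20549787 to 20562089, plus strand), a calcium-binding lactonase also called regucalcin, stood between 574 and 622 CPM in HKO and at 804, 529 and 644 CPM in WT 1, 2 and 3 (log2 fold change -0.14, SE 0.16, adjusted p = 0.543). In both genes WT 1 was the highest of the 6 libraries, and the groups overlapped. The log2 fold change of Rgn turned to 0.01 without WT 1.

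**Figure D2:**
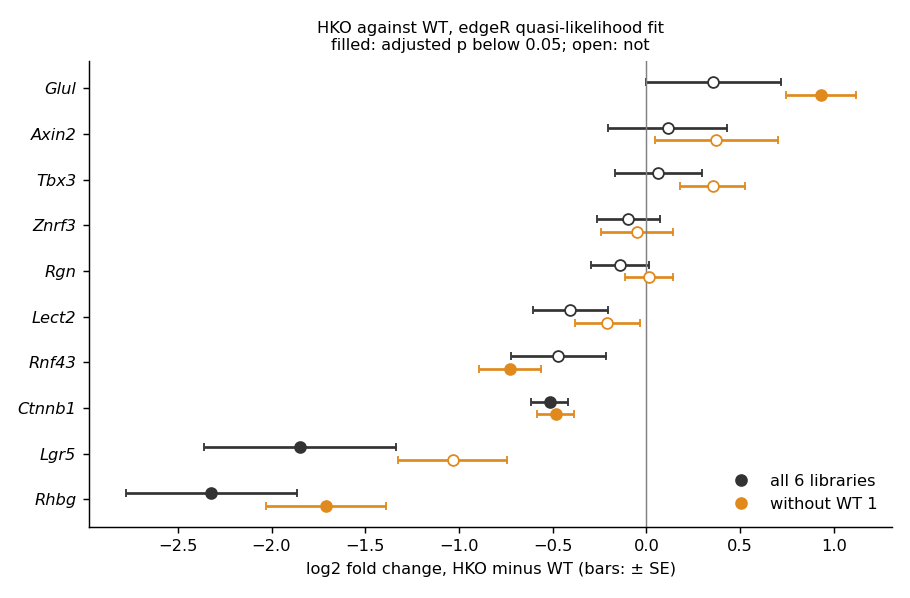
Log2 fold change of HKO minus WT for each of the 10 genes with its SE, from all 6 libraries (dark) and without WT 1 (orange), filled where the adjusted p is below 0.05. Leaving out WT 1 moves Glul from 0.36 to 0.93 and Lgr5 from -1.85 to -1.03, and leaves Ctnnb1 at -0.48.

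Levels between genes were compared per length, from the deposited FPKM (fragments scaled to transcript length and library size). In WT the order of mean FPKM was Rgn (413), Lect2 (134), Glul (81.2), Ctnnb1 (22.9), Rhbg (4.94), Rnf43 (1.16), Tbx3 (0.963), Lgr5 (0.769), Znrf3 (0.726) and Axin2 (0.477). In HKO it was Rgn (372), Glul (102), Lect2 (99.8), Ctnnb1 (15.9), Tbx3 (0.996), Rhbg (0.959), Rnf43 (0.843), Znrf3 (0.679), Axin2 (0.512) and Lgr5 (0.207). Neighbours overlapped between libraries for Lect2 and Glul in both groups. They also overlapped from Rnf43 down to Axin2 in WT, and in HKO among Tbx3, Rhbg and Rnf43 and between Znrf3 and Axin2. Rgn and Ctnnb1 kept the same place in both orders, and the places of overlapping neighbours cannot be ranked.

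The members varied more within WT than within HKO. The highest WT library exceeded the lowest by a median of 1.96-fold over the 10 genes, against 1.25-fold in HKO, and the spread was wider in WT in 9 of 10 genes. Over all genes tested the medians were 1.25-fold in WT and 1.29-fold in HKO, and 42.1% were wider in WT. The order within WT was shared. In 7 of the 10 members WT 1 was above WT 3 and WT 3 above WT 2, an order found in 20.8% of all genes tested. The exceptions were Ctnnb1 and Znrf3, with WT 2 above WT 3, and Rnf43, with WT 1 lowest.

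The same order held in pericentral genes outside the members, and the opposite one in periportal genes. Among 21 further pericentral genes, all tested, 20 had the order WT 1 above WT 3 above WT 2. Among 21 periportal genes, 20 had the order WT 2 above WT 3 above WT 1, found in 22.3% of all genes. For example, the ornithine aminotransferase gene Oat, picked with its values known, reached 1179, 284 and 518 CPM in WT 1, 2 and 3, and the periportal urea cycle gene Asl at 128, 172 and 161 CPM. Summed over the 21 genes, pericentral transcripts were at 13038, 6874 and 8718 CPM in WT 1, 2 and 3 and periportal ones at 7934, 12432 and 10828 CPM. Among the WT libraries WT 1 was thus richest in pericentral and poorest in periportal transcripts. In HKO 1, 2 and 3 the sums were 14878, 12820 and 14329 CPM for pericentral and 19739, 16521 and 20727 CPM for periportal genes. A few abundant genes weigh heavily in these sums. In HKO 1, Cyp3a11 and Cyp2e1 held 6368 and 3692 CPM of the pericentral sum, and Cps1 and Pck1 5168 and 4876 CPM of the periportal one. WT 1 was also the lowest WT library in all 10 endothelial and 5 of 6 hepatocyte markers (37.2% of all genes tested). It was the highest in 6 of 8 stellate and 5 of 8 Kupffer cell markers (38.6% of all genes tested). Whether the makeup of that sample bears on the members was not tested.

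**Figure D3:**
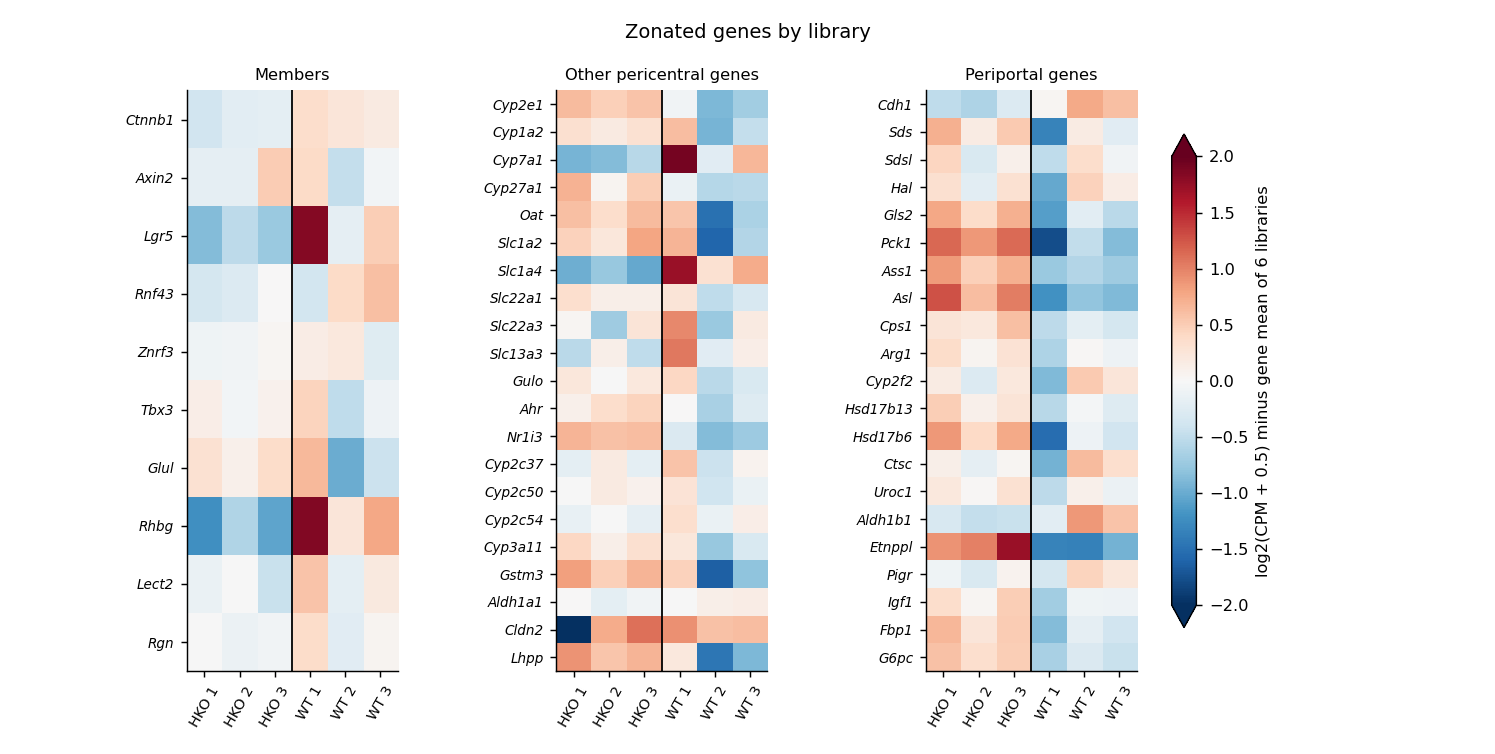
Level of each gene in each library as log2(CPM + 0.5) minus the gene's mean over the 6 libraries, clipped at -2 and 2, for the 10 members, 21 other pericentral and 21 periportal genes. Among the WT libraries WT 1 is the highest in 20 of 21 other pericentral genes and the lowest in 20 of 21 periportal genes, and Rhbg, Lgr5, Slc1a4 and Cyp7a1 are low in all 3 HKO libraries in contrast to Nr1i3 and Cyp2e1.

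In HKO, pericentral genes split. Of the 21 others 5 were higher, 2 lower and 14 did not pass (33.3% called, against 23.2% of all genes), with a median log2 fold change of 0.35. Nr1i3, the xenobiotic receptor CAR, averaged 152 ± 5.19 CPM in HKO against 64.4 ± 13.9 CPM in WT, a rise (log2 fold change 1.24, SE 0.15, adjusted p = 0.00155), and the ethanol-oxidising enzyme gene Cyp2e1 rose from 1682 ± 534 to 3519 ± 185 CPM (log2 fold change 1.07, adjusted p = 0.0128, and 0.0684 without WT 3). Nr1i3 exons overlap Tomm40l on the opposite strand, so its value is uncertain. The sterol hydroxylase gene Cyp27a1 rose with 0.83 (adjusted p = 0.0181, lost without HKO 1, HKO 3, WT 2 or WT 3 at up to 0.0831). Against this, the neutral amino acid transporter gene Slc1a4 fell, averaging 5.44 ± 0.583 CPM in HKO against 22.7 ± 12.2 CPM in WT (log2 fold change -2.06, SE 0.36, adjusted p = 0.00652, kept under all 12 alternatives). Cyp7a1, the rate-limiting enzyme of bile acid synthesis, named after its values were seen, fell from 166 ± 122 to 46.6 ± 6.92 CPM (log2 fold change -1.83, adjusted p = 0.0285, and up to 0.0877 without HKO 1, HKO 3 or WT 3; without WT 1 the value was -1.08). The count of pericentral genes called higher changed with each library left out, and counts over all genes moved as well. The pericentral count was 5 with all libraries and 12 without WT 1, with a median of 0.60. It was 2, 4, 2, 2 and 1 without HKO 1, HKO 2, HKO 3, WT 2 and WT 3, and the median was 0.10 without WT 2. Shares over all genes with the same library left out are not set beside these counts, which describe the list only.

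Periportal genes were called in both directions as well. Rises were called in 10 of the 21, where 12.1% of all genes tested rose, and falls in 2, 9 were not called, and the median log2 fold change was 0.57. Without WT 1, the lowest WT library in 20 of these genes, 8 rose and 3 fell, beside 12 and 2 of the 21 pericentral genes. Shares over all genes under such alternatives are not set beside these counts, which describe the lists only. All HKO libraries lay above WT 2 and WT 3 in 12 of the 21 periportal and 13 of the 21 pericentral genes, and in 28.1% of all genes tested. They lay below both in 5 periportal and 3 pericentral genes, and in 26.5% of all genes tested. Setting WT 1 aside favours HKO above WT in pericentral genes, where WT 1 was mostly highest, and below it in periportal genes. Against all 3 WT libraries, HKO lay above in 12 periportal and 6 pericentral genes (22.6% of all genes tested). It lay below in 2 periportal and 2 pericentral genes (21.6%). Whether the 2 lists differ was not tested. The urea cycle genes Ass1 and Asl rose from 505 ± 28.7 to 1299 ± 164 CPM and from 154 ± 22.5 to 593 ± 132 CPM (log2 fold changes 1.36 and 1.95, adjusted p = 0.000583 and 0.000643). Etnppl, a phosphoethanolamine lyase gene, rose with 2.49 and the glucose-6-phosphatase gene G6pc with 0.93. These 4 were called under all 12 alternatives, while the count of rises was 6 without WT 3, and that of falls was 1 with the replicate block and without any single library except WT 1. One of the 2 that fell, named after its values were seen, was Cdh1, which encodes E-cadherin, a junction partner of beta-catenin (log2 fold change -0.96, SE 0.19, adjusted p = 0.0103).

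Glul was used as a reference within each library, a choice made after the values were seen, because a ratio of reads from 1 library does not depend on how libraries are scaled. It shows unequal change, not which gene changed. Rhbg had 32.4, 30.8 and 31.0 reads per 1000 Glul reads in WT 1, 2 and 3. These 3 values were nearly equal although Glul itself spanned 3.10-fold between the WT libraries. Only 4 of 12555 genes, Rhbg included, had so small a relative spread of this ratio in WT. With Glul picked after the values were seen, that rank describes these libraries and tests no link between the genes. Rhbg had 287, 87 and 119 reads in WT 1, 2 and 3, few enough for counting error to move the ratio. In HKO 1, 2 and 3 the ratio was 3.72, 7.41 and 4.15. The mean was 5.10 ± 2.02 against 31.4 ± 0.858 (SD, n = 3), 6.16-fold lower in HKO, with a two-sided exact permutation p of 0.1, the smallest that 3 against 3 allows. With any single library left out the log2 difference of this ratio stayed between -2.998 and -2.501.

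Lgr5 followed the same course, with 37.8, 26.5 and 30.0 reads per 1000 Glul reads in WT 1, 2 and 3 and 6.21, 9.48 and 6.62 in HKO 1, 2 and 3. The groups were separate, 4.23-fold apart, and WT 1 no longer stood out as it did in CPM. The log2 difference was -2.09, and between -2.28 and -1.95 with any library left out. Of the 9 members other than Glul, 4 (Rhbg, Lgr5, Ctnnb1 and Lect2) were below the WT range in all HKO libraries, none was above it and 5 overlapped, where 11.6% of all genes tested were below. Ctnnb1 and Lect2 were separate by little, at 480 and 295 in HKO 2 against 484 and 301 in WT 1. Ctnnb1, whose ratio spanned 484 to 1400 in WT, did not follow Glul across those libraries.

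Other pericentral genes differed in this ratio in both directions. Slc1a4 had 74.1, 83.9 and 78.0 reads per 1000 Glul reads in WT 1, 2 and 3 and 13.4, 18.1 and 12.3 in HKO, 5.39-fold lower, and Cyp7a1 was 4.29-fold lower. Cyp1a2, a drug-metabolising cytochrome P450 gene, had 1103, 1168 and 1083 in WT and 1133, 1191 and 1074 in HKO, so its groups overlapped. The phosphatase gene Lhpp had 127, 123.2 and 122.6 in WT and 260, 234 and 213 in HKO, 1.90-fold higher, and Oat was 1.45-fold higher. Cyp1a2 and Lhpp were named after their values were seen. Of the 21 pericentral genes 3 were lower, 6 higher and 12 overlapped. Over all genes tested 13.6% did not overlap in either direction, and most of these were lower in HKO (11.6% of all genes).

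**Figure D4:**
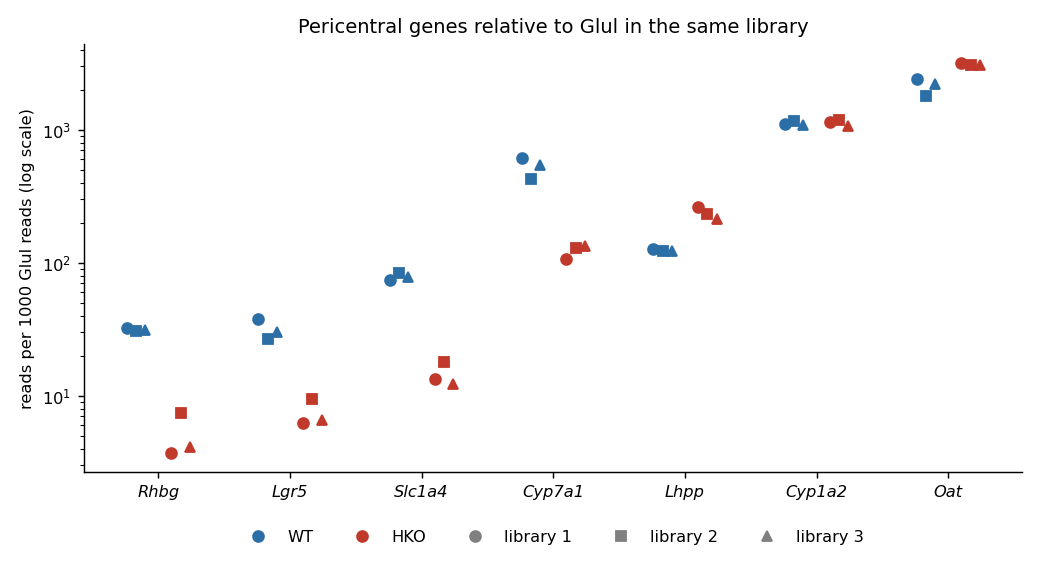
Reads of 7 pericentral genes per 1000 reads of Glul in the same library, on a log axis, for each WT and HKO library. Rhbg, Lgr5, Slc1a4 and Cyp7a1 are 6.16-fold, 4.23-fold, 5.39-fold and 4.29-fold lower in HKO, Cyp1a2 overlaps, and Lhpp and Oat are 1.90-fold and 1.45-fold higher.

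The other genes of the pathway were taken by role. Of 25 genes of ligands, R-spondins and their secretion 10 were at 0 in every library and 8 could be tested. Of these 1 rose and none fell (12.5% called). Over all genes tested 12.1% rose and 11.2% fell, 23.2% in all. Wnt5b, a ligand mostly known for signalling without beta-catenin, rose, averaging 13.8 ± 1.10 CPM in HKO against 8.40 ± 0.711 CPM in WT (log2 fold change 0.71, SE 0.13, adjusted p = 0.00816, kept under all 12 alternatives). The central vein ligand genes did not pass. Wnt2 was at 1.56, 8.66 and 2.69 CPM in the HKO libraries 1 to 3 and between 1.28 and 1.39 CPM in WT (log2 fold change 1.67, adjusted p = 0.0811). Wnt9b stood at 0.967, 4.65 and 0.911 CPM in HKO and between 0.333 and 0.732 CPM in WT (adjusted p = 0.0854), and Rspo3 at 1.24, 6.86 and 1.82 CPM in HKO and at most at 2 CPM in WT (adjusted p = 0.194). HKO 2 was the highest library in each, as it was in all 10 endothelial markers, and the part of endothelial content in these values was not tested. DESeq2 called Wnt2 and Wnt9b (adjusted p = 0.0229 and 0.0361), and Wnt2 also passed without HKO 1 (adjusted p = 0.0381). Without HKO 2 the log2 fold changes were 0.67 for Wnt2 (adjusted p = 0.172), 0.79 for Wnt9b (0.228) and 0.26 for Rspo3 (0.729).

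Among 11 tested receptor genes 1 rose and 2 fell (27.3% called, against 23.2% of all genes). Lgr4, the R-spondin receptor found across the liver lobule, fell, averaging 41.0 ± 3.37 CPM in HKO against 64.5 ± 7.82 CPM in WT (log2 fold change -0.65, SE 0.12, adjusted p = 0.00817, kept under all 12 alternatives), so that both Lgr genes with appreciable counts were lower in HKO. The Frizzled gene Fzd6 fell with -0.60 (adjusted p = 0.0364) and the co-receptor gene Lrp5 rose with 0.45 (adjusted p = 0.0413). Fzd6 lost its call on removal of any 1 library except HKO 2 (adjusted p from 0.0808 to 0.124), and Lrp5 on removal of any 1 except HKO 1 (0.0661 to 0.152). With all libraries kept, Fzd6 also lost it with no low-count filter, by DESeq2 and with the replicate block (0.0684 to 0.0889), and Lrp5 with the block (0.0776). Of 14 cytoplasmic genes 2 rose and none fell (14.3% called, against 23.2% of all genes). These were the scaffold gene Axin1 (log2 fold change 0.39, adjusted p = 0.0327) and the casein kinase gene Csnk1d (0.32, adjusted p = 0.0418), and neither passed on removal of any 1 library except HKO 2, at adjusted p up to 0.126 and 0.164. Neither passed with no low-count filter, by DESeq2 or with the replicate block, at adjusted p from 0.0539 to 0.0746 for Axin1 and from 0.0575 to 0.0805 for Csnk1d.

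The Tcf genes were called in both directions. Of 11 tested nuclear genes 3 rose and 1 fell (36.4% called, against 23.2% of all genes). Tcf7l1, in many settings a repressing Tcf, rose, averaging 6.57 ± 0.145 CPM in HKO against 2.95 ± 0.270 CPM in WT (log2 fold change 1.15, SE 0.17, adjusted p = 0.00363, kept under all 12 alternatives), though its exons overlap a predicted antisense gene. Tcf7, a Tcf gene that is itself a Wnt target, fell from 5.89 ± 1.04 to 3.30 ± 0.337 CPM (log2 fold change -0.84, adjusted p = 0.0237, up to 0.0764 without HKO 1, HKO 3, WT 1 or WT 3). The beta-catenin co-activator genes Bcl9l and Pygo2 rose with 0.46 and 0.82 (adjusted p = 0.0264 and 0.0418). Bcl9l was lost without HKO 3 or any WT library (adjusted p from 0.0514 to 0.106) and with the replicate block (0.0627), and Pygo2 when any library was left out (0.0680 to 0.0785). Of 4 tested inhibitor genes 1, the Dkk co-receptor gene Kremen1, rose (log2 fold change 0.43, adjusted p = 0.0498), and it passed in 2 of 12 alternatives. The secreted Wnt deacylase gene Notum, a pericentral target named after its values were seen, was at 28.8, 15.6 and 15.9 CPM in WT 1, 2 and 3 and between 18.6 and 22.6 CPM in HKO. Exons of Csnk1d, Notum and Rspo3 also overlap antisense genes, and those of Fzd6, Bcl9l and Ccnd1 a gene on the opposite strand, so reads of the partners cannot be told apart.

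Of 7 other common Wnt targets tested 2 rose and none fell by edgeR's test on all libraries without a block (28.6% called, against 23.2% of all genes). Ccnd1 was called lower by DESeq2, by limma-voom, with the replicate block and without HKO 2. Myc, a growth regulator, rose, averaging 7.28 ± 1.35 CPM in HKO against 2.84 ± 0.440 CPM in WT (log2 fold change 1.35, SE 0.21, adjusted p = 0.00464, kept under all 12 alternatives), and the hyaluronan receptor gene Cd44 rose from 2.56 ± 0.545 to 4.70 ± 0.400 CPM (log2 fold change 0.88, adjusted p = 0.0288, and 0.0502 to 0.0897 without any 1 library except HKO 2). The cyclin D1 gene Ccnd1, picked with its values known, was at 35.3, 91.7 and 35.9 CPM in the HKO libraries 1 to 3 and between 97.8 and 113 CPM in WT. HKO 2 was close to WT and the other HKO libraries far below it. By edgeR without a block the log2 fold change was -0.94 (adjusted p = 0.0896). Ccnd1 was called lower from all libraries by DESeq2 (adjusted p = 0.014), by limma-voom (0.0471) and with the replicate block (0.0483), and without HKO 2 the log2 fold change was -1.54 (adjusted p = 0.000119).

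**Figure D5:**
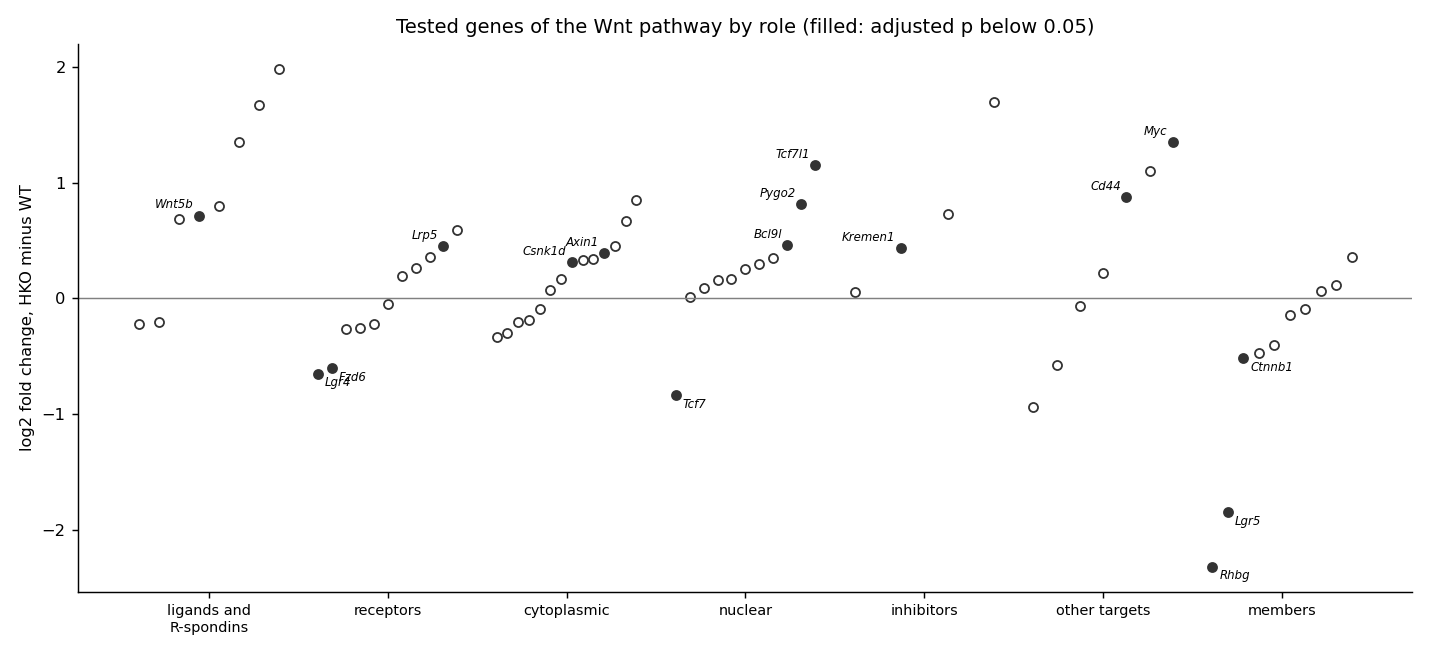
Log2 fold change of HKO minus WT for the members and each tested gene of the Wnt lists, grouped by role, with genes at an adjusted p below 0.05 filled and named. The members are at the right, with Rhbg (-2.32) and Lgr5 (-1.85) lowest of the genes shown, and Wnt5b, Tcf7l1 and Myc are among those that rose.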

How the data were processed

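The authors deposited 1 table with a raw read count and an FPKM for each gene in each of 6 libraries, per the file headers. The submitters' processing notes name HISAT2 2.0.4, StringTie 1.3.0 and the builds mm10 and GRCm38.p4, without roles or settings. The handling of reads that match several places is not stated in these sources, and no strand-marking step is described in the labels' protocols. Gene coordinates are those of the deposited table. Exon overlaps were taken from GENCODE M21.

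The test on counts used edgeR 4.0.16 in R 4.3.3 (filterByExpr, TMM, quasi-likelihood F-test, no block, Benjamini-Hochberg over 12556 genes, threshold 0.05). Each SE was obtained by dividing the size of the log2 fold change by the root of its F value. The script was tested on simulated data. DESeq2 1.42.0 and limma 3.58.1 (voom) were among the 12 alternatives. Library totals were 16659778 to 21168233 counts, and Lgr5 and Rhbg rest on 27 to 59 reads in each HKO library. Depth did not set the precision alone. Glul, with 2825 to 8919 reads per library, had an SE of 0.36, and Znrf3, with 104 to 171 reads, an SE of 0.17.

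The members and gene lists were chosen with earlier results of these data known. The text names the members, Sox9, Wnt2, Wnt9b, Rspo3 and up to 4 called genes per list by smallest p, and marks others. The symbol Tf was matched as Trf through RefSeq synonyms. The labels give both groups replicate numbers 1 to 3, whose deviations correlated at -0.00192, 0.00248 and 0.0717, so the numbers were not used to pair libraries.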

Additional observations from a re-analysis of the deposited data

How the results depend on the processing

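The 12 alternatives were RLE scaling, leaving out mitochondrial genes, no low-count filter, DESeq2, limma-voom, a replicate block and leaving out each library. The count of members lower in HKO was 3, or 2 by limma-voom, with the replicate block and without HKO 1, HKO 3 or WT 3; with single libraries left out it was 2 to 3. The count higher was 0 throughout, except for 1 without WT 1, so 0 to 1. Over all genes, 1516 were higher and 1401 lower. With a library left out the counts ran from 722 to 1589 higher and from 682 to 1546 lower, and with the replicate block they were 1245 and 1115. The block ended the calls of Lgr5 and Sox9 among the members and the targeted gene.

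Of 120 values of the members under these alternatives, 108 kept direction and side of the threshold, 6 (all of Lgr5) lost the call, 2 (Glul and Rnf43, without WT 1) gained one and 4 changed sign, none of them called. With a library left out, Axin2 ran from -0.20 to 0.37, Tbx3 from -0.15 to 0.35 and Rgn from -0.28 to 0.014, with the sign changed for Axin2 without HKO 3 or WT 2, Tbx3 without WT 2 and Rgn without WT 1. Among genes named after their values were seen, Notum ran from -0.10 to 0.39, negative without HKO 2, WT 2 or WT 3, and Cldn2 from -0.94 to 0.21, positive without HKO 1. The median of the other Wnt targets was 0.22, and ran from -0.0175 without WT 2 to 0.84 without WT 1. The cause was not tested. The ratio to Glul, a comparison added after the data were seen, involves no scaling. Depth limits genes with few reads, among them Wnt9b (6 to 20 reads in 5 of 6 libraries).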

Other observations

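The claudin gene Cldn2, a tight junction gene of pericentral hepatocytes, was at 3.55 CPM in HKO 1, against 105 and 136 CPM in HKO 2 and 3 and between 94.5 and 119 CPM in WT.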
